A study of Homo sapiens with 8 samples.

Results

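The 43 genes described here encode the enzymes that make cholesterol and fatty acids, together with the regulators that set their transcription through the sterol regulatory element-binding proteins (SREBPs). They were taken by symbol, and each had 1 row among the 21077 genes of the table. All 43 were kept by the filter on low values, which asked for at least 0.5 CPM in at least 2 libraries and left 15570 genes. The libraries came from Hs578T, an established line of estrogen receptor-negative breast cancer cells. The high-glucose group had medium with 25 mM glucose for 48 hours, a model of hyperglycemia, and the low-glucose group had 5 mM glucose for the same 48 hours. Each group had 4 replicates, and the labels name no transgene or drug. The study describes T25 flasks for the RNA-Seq of its other cell lines. By the general culture methods of the study, the cells were first conditioned in low glucose and the medium of both groups held no serum, so the cultures were without lipoproteins from serum during the treatment. Mannitol was added in some experiments of the study to balance osmolarity, and no source says whether these cultures had it. Labels do not tell separate cultures from technical replicates. The p values therefore set each difference only against the spread of these libraries, which may not be that of separate cultures. In bulk RNA, fewer cells of a type and less RNA per cell cannot be told apart.

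Cholesterol and fatty acids are both built from cytosolic acetyl-CoA. When sterols are scarce in the endoplasmic reticulum, SCAP escorts the membrane-bound SREBPs to the Golgi, where proteases free the part that enters the nucleus and switches on these genes. When sterols are plentiful, INSIG proteins hold SCAP and the SREBPs back, and INSIG1 is itself an SREBP target. SREBP2, from SREBF2, is best known for cholesterol synthesis, and SREBP1, from SREBF1, for fatty acid synthesis. Cancer cells often make much of their own fatty acid.

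Values are the deposited signal, taken as CPM (read counts scaled to library size) with TMM scaling, and errors are SDs with n = 4 per group. Fold changes, with SE, are from limma on log2(CPM + 1), high glucose over low. Genes with a Benjamini-Hochberg adjusted p under 0.05 over all 15570 genes were called. Libraries held an estimated 10244900 to 11956678 counts each. Estrogen receptor ESR1 reached at most 0.270 CPM in high and 0.225 CPM in low glucose, and the epithelial EPCAM was at 0 in all 8 libraries. The keratins KRT18 (94.4 to 108 CPM in high and 221 to 242 CPM in low glucose) and KRT8 (15.3 to 19.95 CPM in high and 47.9 to 52.8 CPM in low glucose) were present and lower in high glucose without overlap, as was the mesenchymal VIM, which was at 3567 to 3909 CPM in high and 8269 to 8581 CPM in low glucose. Of 14 markers of adipocytes, macrophages, endothelial cells and hepatocytes, 9 had a row, and these summed to 13.7 to 17.8 CPM in high and 7.37 to 10.3 CPM in low glucose. Of the 9, the endothelial PECAM1 (4.91 to 6.21 CPM in high and 1.63 to 2.44 CPM in low glucose) and VWF (1.30 to 1.82 CPM in high and 0 to 0.332 CPM in low glucose) and the leukocyte PTPRC (0.382 to 1.08 CPM in high and 0 to 0.221 CPM in low glucose) were higher in high glucose without overlap. CSF1R, at 6.11 to 8.29 CPM in high and 5.09 to 7.31 CPM in low glucose, overlapped, PLIN1 and FABP4 stayed at or below 0.347 CPM and the endothelial CDH5 was at 0 throughout. The part of such cells in the results was not tested.

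The libraries of a group differed among themselves in a way that went with base composition. Among the 43 genes, the difference between high-glucose replicate 4 and high-glucose replicate 1 had a Pearson r of -0.84 and a Spearman rho of -0.84 with the GC content of the canonical transcript (n = 43 genes measured in the same libraries, a description without a test). In the 14 genes with the most GC (55.2% to 65.5%) replicate 4 was lower than replicate 1 in all 14, with a median difference of -0.32 on the log2 scale, whereas in the 14 genes with the least GC (34.4% to 44.8%) it was lower in 1, with a median of 0.09. Low-glucose replicate 2 leaned the other way against the remaining low-glucose libraries (r = 0.70 with GC). Over the 9518 genes with a mean of at least 10 CPM the corresponding r was -0.64 and 0.51. The difference between glucose levels had an r of -0.23 with GC over the 43 genes and of -0.29 over the 9518 genes. SREBF1 and FASN, with 63.2% and 65.3% GC, were among the genes this touched most. Values after a correction for GC content, an alternative chosen after seeing the data, are given beside some results and, for all called genes they moved by over 1.5 times, after the account of the genes. The correction removed from each library its trend with GC against the mean of all libraries. It thus also removed any such trend between glucose levels, and cannot tell that from a trend between replicates.

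**Figure D1:**
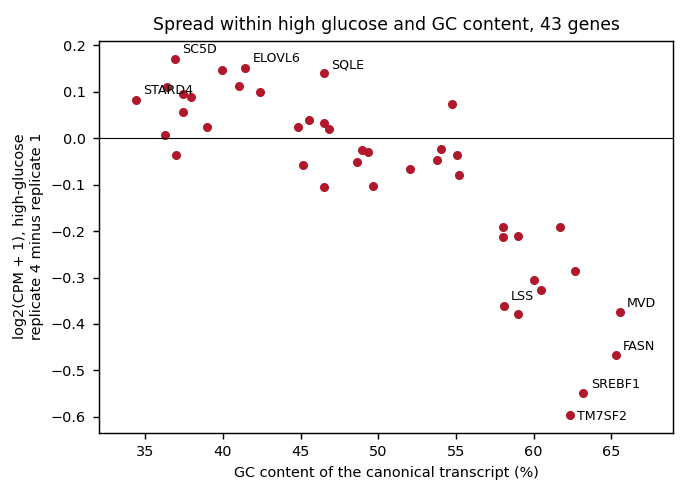
Difference in log2(CPM + 1) between high-glucose replicate 4 and high-glucose replicate 1 (vertical axis) against the GC content of the canonical transcript in percent (horizontal axis), with 1 point for each of the 43 genes. Genes with the most GC lie lowest, and TM7SF2, SREBF1 and FASN differ by -0.60, -0.55 and -0.47 between these replicates of the same group.

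Of the 43 genes 33 were called, 13 higher and 20 lower in high glucose, and 10 did not pass. That is 76.7% called, 30.2% higher and 46.5% lower, beside 72.9% called, 35.7% higher and 37.2% lower over all genes tested. The share called was thus close to the background of an experiment in which most genes passed. The 2 groups of 4 libraries did not overlap for 30 of the 43 genes (69.8%), beside 66.7% of all genes. The median log2 fold change was -0.07 over the 43 genes and 0.00 over all genes, and the median size of the change regardless of sign was 0.37 and 0.48. At least a 2-fold difference between group means was seen for 6 genes. ELOVL6 and SCD5 were higher, and MVD, FDFT1, MVK and DHCR7 were lower by that much. The split between higher and lower depended on how libraries were scaled. With column totals made equal, which moved the median of all genes by 0.20 on the log2 scale, 25 of the 43 genes were higher and 14 lower. It was 19 higher and 16 lower with quantile normalization and 19 each with the GC correction. Over all genes the split moved too, to 7326 higher and 4348 lower of 15570 with totals made equal. It was 6591 higher and 5083 lower of 15374 with the GC correction, which moved the median of all genes by 0.11. Quantile normalization gave 5553 higher and 5671 lower, against 5553 and 5797 with the scaling as deposited.

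**Figure D2:**
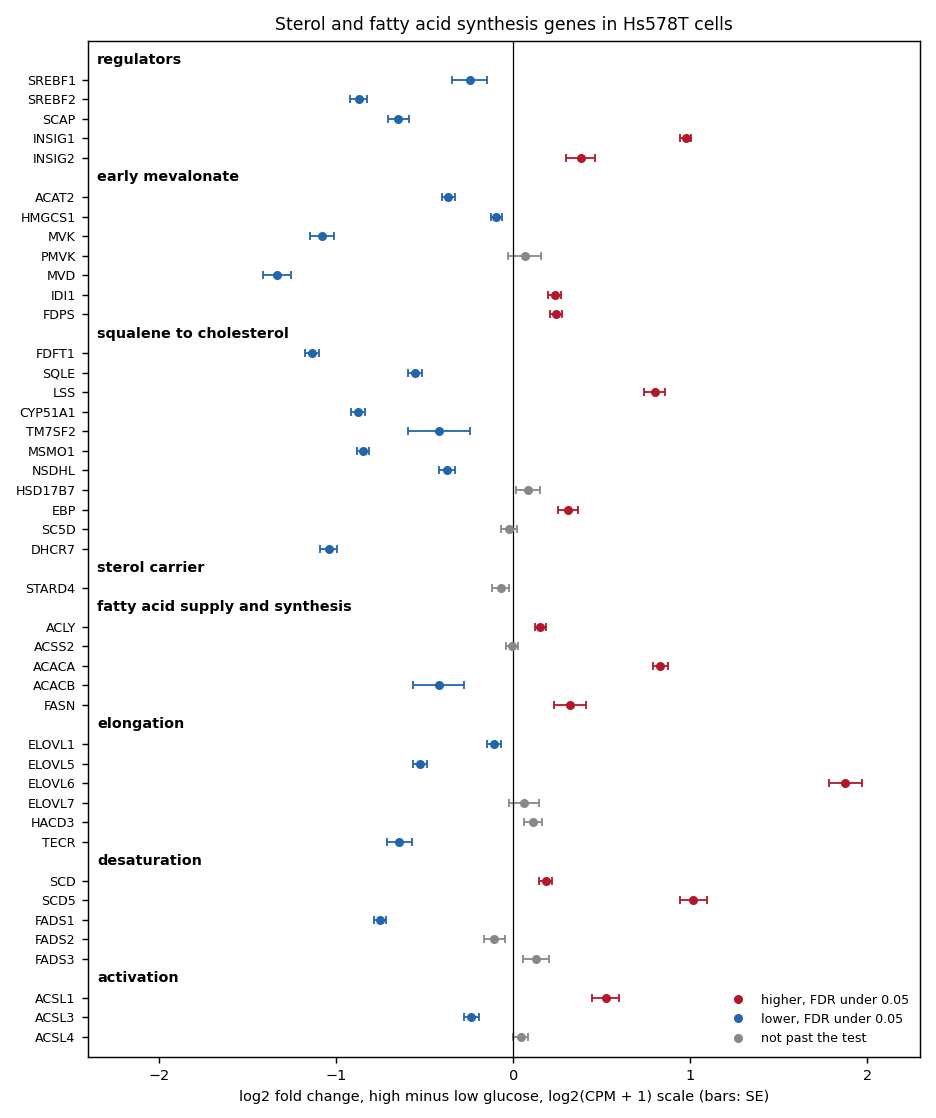
Log2 fold change (high minus low glucose, log2(CPM + 1) scale, horizontal axis) of the 43 genes, grouped by role, with bars for the SE over 4 high-glucose and 4 low-glucose libraries, red for genes called higher, blue for genes called lower and gray for genes that did not pass. The values run from 1.88 for ELOVL6 to -1.33 for MVD, and within most roles genes of both directions stand next to each other.

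The regulators moved in opposite directions. INSIG1 and INSIG2, which retain SCAP, were higher in high glucose, and SREBF2 and SCAP were lower. INSIG1 (chromosome 7 from 155297878 to 155310235, as all positions from RefSeq on GRCh38) had 1079.6, 1090.4, 1103 and 1098 CPM in high glucose, against 559, 542, 556 and 566 CPM in low glucose. The replicates of INSIG1 lay within a few percent of each other and the groups were far apart. INSIG1 averaged 1093 ± 10.1 CPM in high and 556 ± 10.1 CPM in low glucose, 1.97-fold higher, with a log2 fold change of 0.97 ± 0.0302 (SE, adjusted p = 3.16e-13). INSIG2, its less abundant relative that is not known as an SREBP target, had 21.2, 18.7, 22.6 and 21.3 CPM in high glucose, against 16.6, 14.6, 15.9 and 16.3 CPM in low glucose. Its groups did not overlap either, with a log2 fold change of 0.38 ± 0.0825 (adjusted p = 6.59e-04).

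SREBF2 (chromosome 22 from 41833105 to 41907305), the gene of SREBP2, had 432, 422, 380.0 and 372 CPM in high glucose, against 737, 759.6, 709.5 and 734 CPM in low glucose. Every high-glucose library was below every low-glucose library, and the high-glucose mean was 54.6% of the low-glucose mean (log2 fold change -0.87 ± 0.0464, adjusted p = 1.30e-10). SCAP (chromosome 3 from 47413681 to 47477127), the escort of the SREBPs, had 67.5, 70.0, 57.5 and 59.0 CPM in high glucose, against 101, 99.2, 97.8 and 101 CPM in low glucose. The SCAP groups were apart as well (log2 fold change -0.65 ± 0.0598, adjusted p = 8.84e-08), but after the GC correction its change was -0.14 (adjusted p = 0.0154). For SREBF2 it was -0.52 after that correction (adjusted p = 1.55e-12). SREBF1 (chromosome 17 from 17811334 to 17836986) had 82.7, 83.1, 71.0 and 56.2 CPM in high glucose, against 79.8, 97.0, 82.9 and 85.7 CPM in low glucose. The groups overlapped, and 1 high-glucose library, replicate 4, was well below the other 3. SREBF1 passed as lower (-0.25 ± 0.0998, adjusted p = 0.0367), but did not without high-glucose replicate 4 (-0.13, adjusted p = 0.107), high-glucose replicate 3 (-0.24, adjusted p = 0.0758), low-glucose replicate 2 (-0.19, adjusted p = 0.118) or low-glucose replicate 4 (-0.25, adjusted p = 0.0631). After the GC correction it was called higher (0.32, adjusted p = 2.13e-05), and its direction thus depended on the processing.

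**Figure D3:**
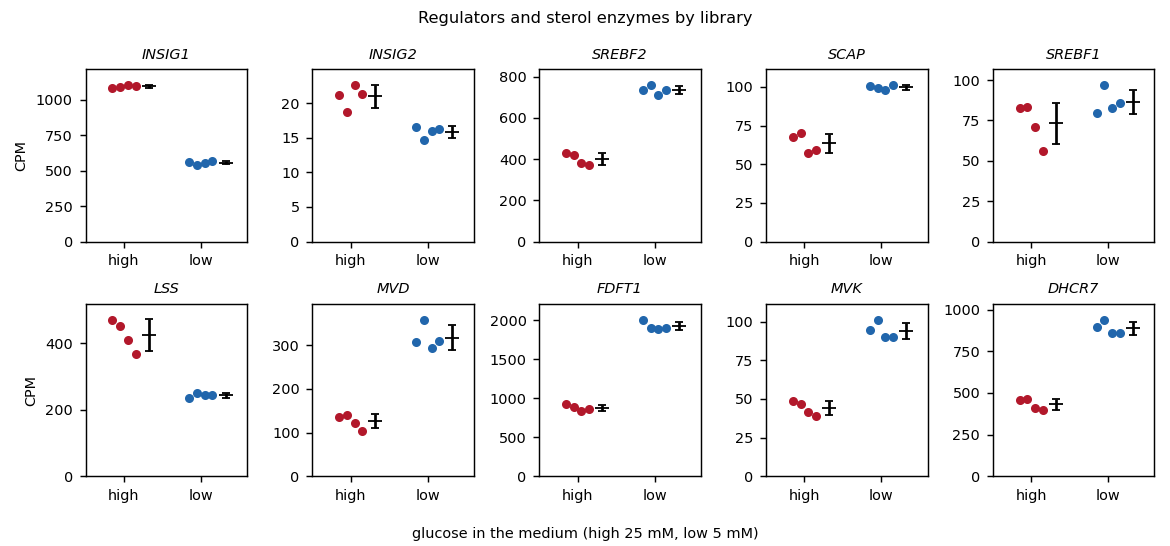
CPM of 5 regulators (top row) and 5 sterol enzymes (bottom row) in each of the 4 high-glucose (red) and 4 low-glucose (blue) libraries, each vertical axis starting at 0, with the mean and SD in black. INSIG1 averaged 1093 CPM in high and 555.6 CPM in low glucose, and the groups overlap in the SREBF1 panel and in no other.

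To show the sequence upstream of these genes, the 150 bases before the start site were taken from RefSeq (GRCh38.p14) for the called genes with the largest rises and the largest falls among the 20 called genes whose stretch lay outside the annotated gene. The RefSeq table used here gave a promoter for 39 of the 43 genes. Capitals mark matches on either strand to 4 motifs, namely CACNCCAC (the core of the sterol regulatory element, to which SREBPs bind), CCAAT (the box bound by NF-Y, a factor that works beside SREBPs at many sterol genes), GGGCGG (the box bound by Sp1) and CACGTG (an E-box). Matches to GGGCGG can overlap each other. The genes that rose were
SCD5: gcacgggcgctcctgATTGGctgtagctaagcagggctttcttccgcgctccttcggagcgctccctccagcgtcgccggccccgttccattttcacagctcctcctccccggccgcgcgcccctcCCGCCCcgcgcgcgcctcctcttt
INSIG1: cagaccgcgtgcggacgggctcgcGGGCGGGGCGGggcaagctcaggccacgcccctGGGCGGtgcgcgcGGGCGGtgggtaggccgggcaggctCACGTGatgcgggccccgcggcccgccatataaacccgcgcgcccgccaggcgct
ACACA: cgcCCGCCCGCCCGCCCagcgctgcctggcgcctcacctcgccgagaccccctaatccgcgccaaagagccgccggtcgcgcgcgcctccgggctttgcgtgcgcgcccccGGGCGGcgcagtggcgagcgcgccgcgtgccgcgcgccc
and those that fell were
MVD: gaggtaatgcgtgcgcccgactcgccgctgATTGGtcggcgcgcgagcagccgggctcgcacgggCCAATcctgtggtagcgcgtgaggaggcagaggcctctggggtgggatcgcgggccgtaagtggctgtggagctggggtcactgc
SREBF2: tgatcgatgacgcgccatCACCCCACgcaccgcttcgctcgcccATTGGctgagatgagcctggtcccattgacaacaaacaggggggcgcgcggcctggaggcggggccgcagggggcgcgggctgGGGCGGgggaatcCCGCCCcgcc
MSMO1: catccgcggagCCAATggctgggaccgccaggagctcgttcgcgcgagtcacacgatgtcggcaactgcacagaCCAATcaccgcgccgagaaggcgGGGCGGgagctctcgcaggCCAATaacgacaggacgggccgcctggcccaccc
They lie at chr4:82798797-82798946 (minus strand), chr7:155297728-155297877 (plus), chr17:37406837-37406986 (minus), chr16:88663092-88663241 (minus), chr22:41832955-41833104 (plus) and chr4:165327519-165327668 (plus), in the order printed.

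Over the whole 300 bases of the table (250 before to 50 after the start site) CACNCCAC was found in 5 of 39 promoters (12.8%), beside 5.54% of 10776 promoters of genes tested. The 5 were those of INSIG1 and SCD among the genes that rose, SREBF2 among those that fell, and SC5D and ACSL4, which did not pass. The match of SREBF2 starts 132 bases before the start site. CCAAT was in 25 of 39 (64.1%), beside 36.7% of all promoters. It was in 7 of 12 genes that rose, 12 of 17 that fell and 6 of 10 that did not pass. GGGCGG was in 35 of 39, beside 68.8% of all, and CACGTG in 5 of 39, beside 9.98% of all. These counts describe letters in a window and not sites in use, and they were not tested.

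Most enzymes of sterol synthesis were lower in high glucose, but with column totals made equal 8 were higher and 9 lower. With the scaling as deposited, of the 18 enzymes from acetoacetyl-CoA to cholesterol 4 were higher, 11 lower and 3 did not pass, with a median log2 fold change of -0.37, and the groups did not overlap for 14 of them. That is 83.3% called, 61.1% lower and 77.8% without overlap, beside 72.9%, 37.2% and 66.7% of all genes tested. In the early, mevalonate part, ACAT2, HMGCS1, MVK and MVD were lower, IDI1 and FDPS were higher and PMVK did not pass. MVD (chromosome 16 from 88651940 to 88663091), the mevalonate diphosphate decarboxylase, had 135, 141, 122 and 104 CPM in high glucose, against 308, 359, 295 and 309 CPM in low glucose. High glucose was at 39.6% of the low-glucose mean, with no overlap (log2 fold change -1.33 ± 0.0801, adjusted p = 5.35e-10), and low-glucose replicate 2 was the highest of all 8 libraries. Mevalonate kinase (MVK, chromosome 12 from 109573272 to 109598125) had 48.6, 47.0, 41.6 and 39.2 CPM in high glucose, against 94.5, 101, 89.9 and 90.4 CPM in low glucose. MVK was thus at 46.9% of its low-glucose mean (-1.08 ± 0.0672, adjusted p = 8.38e-10). Both genes are rich in GC, and after the GC correction their changes were -0.70 and -0.64 (adjusted p = 3.03e-13 and 9.44e-11).

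The thiolase ACAT2 had 371, 359, 381 and 381 CPM in high glucose, against 498, 467, 468 and 493 CPM in low glucose (-0.37 ± 0.0358, adjusted p = 1.72e-07). HMGCS1, the synthase of hydroxymethylglutaryl-CoA, was at 1343 ± 22.4 CPM in high and 1436 ± 24.5 CPM in low glucose. That small difference passed as lower (-0.10, adjusted p = 0.0110), but HMGCS1 was higher with quantile normalization (0.32, adjusted p = 2.25e-07) and with equal totals (0.15, adjusted p = 5.62e-04). The next 2 genes rose in all 19 alternatives. IDI1, the isomerase that makes the reactive prenyl unit, had 272, 264, 280.5 and 289.9 CPM in high glucose, against 231, 229, 240.0 and 241 CPM in low glucose (0.23 ± 0.0379, adjusted p = 4.53e-05). FDPS, the farnesyl diphosphate synthase, had 405, 392, 386 and 395 CPM in high glucose, against 345, 335, 328 and 325 CPM in low glucose (0.24 ± 0.0336, adjusted p = 8.33e-06). Both genes were without overlap, although FDPS has pseudogene copies that may share its reads. Phosphomevalonate kinase (PMVK) was at 23.7 ± 2.97 CPM in high and 22.5 ± 2.12 CPM in low glucose, a difference smaller than its replicate spread (adjusted p = 0.545), but it was called higher after the GC correction (0.46, adjusted p = 3.02e-05) and with equal totals (0.30, adjusted p = 0.00762).

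Beyond farnesyl diphosphate, where the path commits to sterols, FDFT1, SQLE, CYP51A1, MSMO1, NSDHL, DHCR7 and TM7SF2 were lower, LSS and EBP were higher, and HSD17B7 and SC5D did not pass. The step between SQLE and CYP51A1 thus went against both of its neighbours. FDFT1, the squalene synthase, had 923, 894, 834 and 858 CPM in high glucose, against 2011, 1905, 1894 and 1902 CPM in low glucose. High glucose was at 45.5% of the low-glucose mean (-1.14 ± 0.0379, adjusted p = 6.81e-13). SQLE, the squalene epoxidase, had 732, 729, 795 and 806 CPM in high glucose, against 1126, 1085, 1133 and 1155 CPM in low glucose (-0.56 ± 0.0396, adjusted p = 4.26e-09). Lanosterol synthase (LSS, chromosome 21 from 46188446 to 46228774), which closes the sterol rings, had 471, 453, 409 and 366 CPM in high glucose, against 235, 249.6, 244 and 243 CPM in low glucose. LSS was 1.75-fold higher (0.80 ± 0.0609, adjusted p = 9.53e-09), with a wider spread in high than in low glucose and no overlap. Its change was 1.15 after the GC correction.

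The lanosterol demethylase CYP51A1 (chromosome 7 from 92112153 to 92134803) had 633, 657, 673 and 685 CPM in high glucose, against 1243, 1149.7, 1227 and 1246 CPM in low glucose (-0.88 ± 0.037, adjusted p = 9.35e-12). MSMO1, the methylsterol oxidase that acts after it, had 535, 540.5, 540.2 and 556 CPM in high glucose, against 1009, 941, 968 and 993 CPM in low glucose (-0.85 ± 0.0329, adjusted p = 3.68e-12). These genes have a low GC content (41.0% and 37.4%) and fell after the GC correction (-0.96 and -0.98) and, by less, with quantile normalization (-0.56 and -0.54). DHCR7, the reductase of the last step of a branch of the pathway, had 455, 463, 408 and 399 CPM in high glucose, against 897, 939, 857 and 859 CPM in low glucose (-1.04 ± 0.0493, adjusted p = 3.40e-11). NSDHL, a sterol dehydrogenase, averaged 98.8 ± 2.99 CPM in high and 128 ± 5.68 CPM in low glucose (-0.37, adjusted p = 1.33e-06). EBP, the sterol isomerase, was the other late gene that rose, with 62.0 ± 2.38 CPM in high and 49.9 ± 3.25 CPM in low glucose (0.31 ± 0.056, adjusted p = 1.37e-04). The sterol reductase TM7SF2, at 3.19 ± 0.885 CPM in high and 4.56 ± 0.909 CPM in low glucose, passed narrowly as lower (-0.42, adjusted p = 0.0415) with overlapping groups, and did not in 10 of the 19 alternatives. Among these were the fits without high-glucose replicate 3 or 4 (adjusted p = 0.0823 and 0.144) and without low-glucose replicate 1, 2 or 4 (adjusted p = 0.0540, 0.118 and 0.0986), and its change was -0.28 without high-glucose replicate 4. The reductase HSD17B7, which has a near-identical pseudogene, was at 30.1 ± 1.63 CPM in high and 28.4 ± 2.06 CPM in low glucose (adjusted p = 0.287), and the desaturase SC5D was at 209 ± 12.6 CPM in high and 212 ± 9.89 CPM in low glucose (adjusted p = 0.666). STARD4, which carries sterols between membranes, had 128, 125, 125 and 135 CPM in high glucose, against 134, 125, 141 and 139.6 CPM in low glucose. Its groups overlapped and it did not pass (adjusted p = 0.174).

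Among the 19 genes of fatty acid synthesis and use 7 were higher, 6 lower and 6 did not pass, with a median log2 fold change of 0.06, and the groups did not overlap for 12. That is 68.4% called and 63.2% without overlap, beside 72.9% and 66.7% of all genes. Here too the balance moved with the scaling, to 14 higher and 3 lower with equal totals and 11 higher and 5 lower with the GC correction. The whole table moved to higher as well under both settings. With quantile normalization 11 of the 19 were higher and 4 lower, while the whole table had 5553 higher and 5671 lower genes. Of the genes that supply acetyl-CoA and build palmitate, ACLY, ACACA and FASN were higher. ACACA (chromosome 17 from 37084992 to 37406836), the acetyl-CoA carboxylase of the cytosol, had 247, 242, 233 and 243 CPM in high glucose, against 126, 136, 136 and 144 CPM in low glucose. It was 1.78-fold higher without overlap (0.83 ± 0.0424, adjusted p = 8.21e-11). The related mitochondrial carboxylase ACACB had 2.77, 2.0, 2.67 and 2.97 CPM in high glucose, against 3.98, 3.26, 3.58 and 4.48 CPM in low glucose. It passed as lower (-0.42 ± 0.142, adjusted p = 0.0148), but did not without high-glucose replicate 2 (-0.34, adjusted p = 0.0524), with equal totals (-0.24, adjusted p = 0.144) or after the GC correction (-0.20, adjusted p = 0.224). ATP-citrate lyase (ACLY) had 769, 756, 744 and 735 CPM in high glucose, against 696, 672, 666 and 667 CPM in low glucose (0.15 ± 0.0316, adjusted p = 4.48e-04). ACSS2, which makes acetyl-CoA from acetate, was at 202 ± 4.40 CPM in high and 203 ± 4.88 CPM in low glucose (adjusted p = 0.864).

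Fatty acid synthase (FASN, chromosome 17 from 82078338 to 82098236) had 999.7, 1069.6, 894 and 723 CPM in high glucose, against 698, 817, 703 and 711 CPM in low glucose. The groups overlapped, with high-glucose replicate 4 below low-glucose replicate 2. FASN passed as higher (0.32 ± 0.0906, adjusted p = 0.00513), with 0.24 to 0.43 when single libraries were left out, but not with a robust variance prior (adjusted p = 0.0644). After the GC correction its rise was 0.95 (adjusted p = 8.05e-15).

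Among the genes of elongation, ELOVL6 had the largest rise of the 43 genes, whereas its relative ELOVL5 fell. ELOVL6 (chromosome 4 from 110045846 to 110199202), which lengthens palmitate and its unsaturated form, had 56.2, 52.6, 59.6 and 62.5 CPM in high glucose, against 16.2, 13.6, 17.7 and 12.9 CPM in low glucose. High glucose was 3.83-fold higher, with a log2 fold change of 1.88 ± 0.092 (adjusted p = 5.06e-11), and ELOVL6 ranked 178 from the top among the 15570 genes. ELOVL5, which lengthens polyunsaturated fatty acids, had 342, 351, 364 and 379 CPM in high glucose, against 508, 496, 526 and 541 CPM in low glucose (-0.53 ± 0.0399, adjusted p = 8.75e-09). TECR, the reductase that ends each elongation cycle, had 84.2, 81.6, 72.0 and 66.9 CPM in high glucose, against 121, 131, 117 and 109 CPM in low glucose. Its groups did not overlap (-0.64 ± 0.0707, adjusted p = 6.86e-07), but TECR is rich in GC and its fall was -0.18 after the GC correction (adjusted p = 7.20e-04). ELOVL1, for saturated very long chains, had 159.6, 159.8, 148 and 151 CPM in high glucose, against 164, 171, 165 and 166 CPM in low glucose. It passed as lower (-0.11, adjusted p = 0.0207), turned to higher with equal totals (0.14, adjusted p = 0.00480) and with the GC correction (0.13, adjusted p = 0.00110), and lost its call without high-glucose replicate 3 (adjusted p = 0.0716) and without low-glucose replicate 2 (adjusted p = 0.0537). ELOVL7 (30.6 ± 2.51 CPM in high and 29.4 ± 3.59 CPM in low glucose) and the dehydratase HACD3 (84.5 ± 5.14 CPM in high and 78.0 ± 2.90 CPM in low glucose) did not pass (adjusted p = 0.541 and 0.0596).

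Among the desaturases, SCD and SCD5, which place the first double bond in saturated chains, were higher, and FADS1, which acts on polyunsaturated chains, was lower. SCD5 (chromosome 4 from 82629539 to 82798796) had 29.8, 30.7, 28.3 and 28.7 CPM in high glucose, against 13.7, 15.7, 13.3 and 13.3 CPM in low glucose. It was 2.09-fold higher with no overlap (1.02 ± 0.0773, adjusted p = 8.88e-09). SCD (chromosome 10 from 100347233 to 100364826) had 6220.2, 6132, 6229 and 6365 CPM in high glucose, against 5706, 5358, 5426 and 5484 CPM in low glucose. The groups did not overlap, and SCD was 1.14-fold higher (log2 fold change 0.18 ± 0.0362, adjusted p = 3.03e-04). With quantile normalization its log2 fold change was 1.16. FADS1 (chromosome 11 from 61799627 to 61817003) had 415, 409, 407 and 407 CPM in high glucose, against 712, 659.6, 677 and 712 CPM in low glucose. It was at 59.3% of its low-glucose mean (-0.75 ± 0.0342, adjusted p = 2.19e-11). Its neighbour FADS2, whose annotated span on the opposite strand overlaps that of FADS1 so that reads there may be shared unless strand was counted, had 172, 176, 156 and 149 CPM in high glucose, against 187, 188, 169 and 159 CPM in low glucose, and FADS3 had 79.0, 78.1, 75.0 and 64.7 CPM in high glucose, against 63.2, 78.0, 66.5 and 63.8 CPM in low glucose. Both overlapped between groups and did not pass (adjusted p = 0.135 and 0.132), although after the GC correction both were called higher (0.29 and 0.68).

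Acyl-CoA synthetases, which activate fatty acids for use, also split. ACSL1 had 50.1, 48.4, 51.8 and 48.1 CPM in high glucose, against 34.4, 38.1, 28.6 and 36.6 CPM in low glucose, and was 1.44-fold higher (0.52 ± 0.0769, adjusted p = 1.74e-05). ACSL3, which is found on lipid droplets, had 398, 391, 429 and 424 CPM in high glucose, against 501, 456, 495 and 484 CPM in low glucose. It passed as lower (-0.24 ± 0.0412, adjusted p = 9.00e-05), but the difference was 0.01 with equal totals (adjusted p = 0.880). ACSL4, which prefers arachidonate, was at 194 ± 7.27 CPM in high and 189 ± 9.30 CPM in low glucose and did not pass (adjusted p = 0.383).

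**Figure D4:**
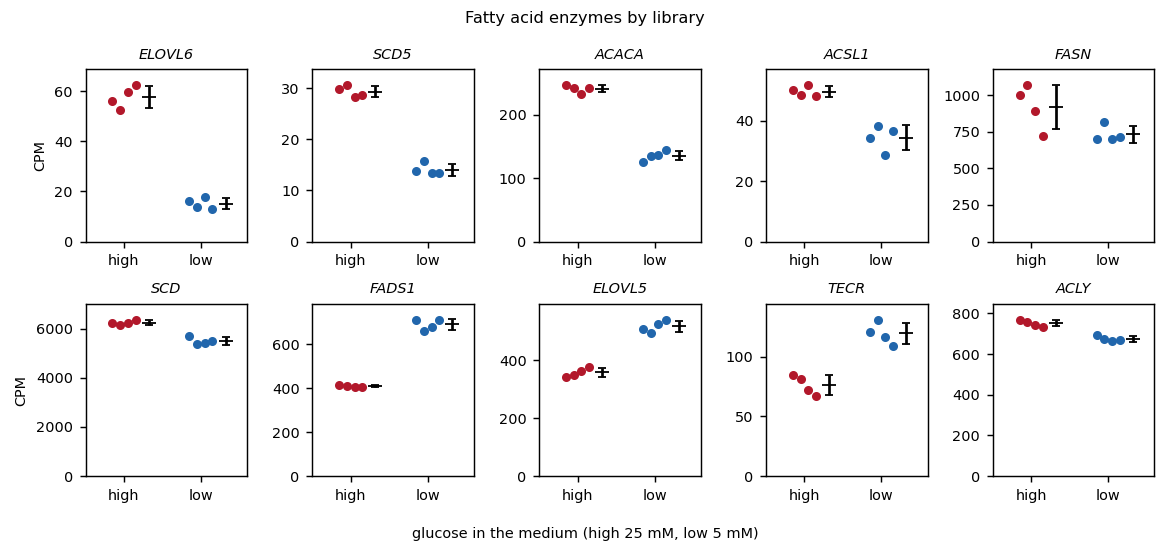
CPM of 10 genes of fatty acid synthesis, elongation, desaturation and activation in each of the 4 high-glucose (red) and 4 low-glucose (blue) libraries, each vertical axis starting at 0, with the mean and SD in black. ELOVL6 averaged 57.7 CPM in high and 15.1 CPM in low glucose, whereas the FASN groups overlap.

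Across the 19 alternatives, 12 of the 13 genes that rose and 14 of the 20 that fell kept both direction and call in every one. The matching share over all genes tested was not computed. Changing the filter, the variance prior or the replicate block leaves the fold change as it was, so no direction could turn there. FASN was the exception among the rises. SREBF1, HMGCS1, TM7SF2, ACACB, ELOVL1 and ACSL3 were the exceptions among the falls.

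The GC correction moved the change of 18 of the 33 called genes by over 1.5 times. Besides the values given above, it was -0.69 for DHCR7, 0.24 for INSIG2, -0.21 for HMGCS1, 0.11 for IDI1, 0.47 for FDPS, 0.51 for EBP, 0.30 for ACLY and -0.37 for ACSL3, all still called in the same direction. For TM7SF2 it was 0.12 (adjusted p = 0.472). Equal totals moved 19 of the 33. That setting multiplies all genes of a library by 1 factor, and deposited columns summed to more in low than in high glucose. Genes well above 1 CPM therefore shifted up by nearly the same amount, such as SREBF2 from -0.87 to -0.63 and INSIG1 from 0.97 to 1.22. Falls became smaller, with -0.12 for ACAT2, -0.31 for SQLE, -0.13 for NSDHL, -0.28 for ELOVL5, -0.41 for SCAP and -0.40 for TECR. Rises became larger, with 0.61 for INSIG2, 0.48 for IDI1, 0.49 for FDPS, 0.55 for EBP, 0.40 for ACLY, 0.56 for FASN and 0.43 for SCD. SREBF1 (-0.00471, adjusted p = 0.967) and TM7SF2 (-0.23, adjusted p = 0.247) lost their call. Quantile normalization moved 15 of the 33. It gave -0.18 for ACAT2, -0.74 for FDFT1, -0.26 for SQLE, -0.33 for ELOVL5 and -0.03 for ACSL3 (adjusted p = 0.520), and it gave 0.36 for IDI1, 0.40 for FDPS, 0.44 for ACLY and 0.62 for FASN. SREBF1 (-0.15, adjusted p = 0.173) and ELOVL1 (-0.03, adjusted p = 0.560) were not called with it. A pseudocount of 5 CPM gave smaller changes for TM7SF2 (-0.22) and ACACB (-0.21), and scaling by the median of ratios ended the calls of HMGCS1 (-0.06, adjusted p = 0.139), ELOVL1 (-0.07, adjusted p = 0.122), SREBF1 (-0.21, adjusted p = 0.0608) and TM7SF2 (-0.39, adjusted p = 0.0523).

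All 10 genes that did not pass were called higher with equal totals, with 0.14 for FADS2 to 0.37 for FADS3. After the GC correction ACSS2 (0.19), PMVK, FADS2 and FADS3 were called higher and SC5D (-0.16), STARD4 (-0.24) and ACSL4 (-0.10) lower, so SC5D, STARD4 and ACSL4 were called in opposite directions by these alternatives. Quantile normalization called HSD17B7 (0.18), ACSS2 (0.08), HACD3 (0.20), FADS3 (0.21) and ACSL4 (0.13) higher, and scaling by the median of ratios called HACD3 (0.15) and FADS3 (0.17). Single libraries decided some of these calls as well. STARD4 passed as lower without low-glucose replicate 2 (-0.11, adjusted p = 0.0399), and FADS2 without low-glucose replicate 4 (-0.15, adjusted p = 0.0388). HACD3 passed as higher without high-glucose replicate 1 (0.13, adjusted p = 0.0416) or 2 (0.14, adjusted p = 0.0335), and FADS3 without high-glucose replicate 4 (0.19, adjusted p = 0.0161) or low-glucose replicate 2 (0.20, adjusted p = 0.0169).

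For the further lists that follow, only the scaling as deposited was used, and their dependence on scaling or GC content was not checked. Of 12 genes of SREBP processing and degradation 6 were higher, 4 lower and 2 did not pass, with 83.3% called and a median log2 fold change of 0.16, beside 72.9% called and a median of 0.00 over all genes. RNF145, an ubiquitin ligase of the endoplasmic reticulum that acts on SCAP, averaged 328 ± 13.5 CPM in high and 92.7 ± 6.48 CPM in low glucose (1.81, adjusted p = 7.65e-14). C12orf49, which the proteolytic activation of SREBPs needs, averaged 91.2 ± 2.49 CPM in high and 39.9 ± 3.38 CPM in low glucose (1.18, adjusted p = 6.80e-11). The kinase GSK3B, which marks nuclear SREBPs for degradation, averaged 199 ± 5.20 CPM in high and 138 ± 4.45 CPM in low glucose (0.52, adjusted p = 5.75e-09). All 3 rose.

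Of 13 further genes of sterol synthesis, its electron supply and sterol uptake 3 were higher, 6 lower and 4 did not pass (69.2% called, beside the same 72.9%). POR, the reductase that passes electrons to CYP51A1 and SQLE, fell to 52.2 ± 6.59 CPM in high glucose, against 121 ± 7.89 CPM in low glucose (-1.21, adjusted p = 1.06e-09). Of 11 measured genes of sterol release, storage and efflux 4 were higher, 6 lower and 1 did not pass (90.9% called). Lysosomal acid lipase (LIPA) averaged 148 ± 4.96 CPM in high and 70.2 ± 2.63 CPM in low glucose (1.07, adjusted p = 6.58e-12), and SOAT1, which esterifies cholesterol for storage, averaged 189.6 ± 7.89 CPM in high and 104 ± 1.96 CPM in low glucose (0.86, adjusted p = 2.91e-11). Both rose. Of 14 measured further genes of fatty acid synthesis 6 were higher, 5 lower and 3 did not pass (78.6% called). The citrate carrier SLC25A1 averaged 114 ± 13.2 CPM in high and 199 ± 6.98 CPM in low glucose (-0.81, adjusted p = 1.68e-08), malic enzyme ME1 averaged 106 ± 5.77 CPM in high and 163 ± 8.06 CPM in low glucose (-0.62, adjusted p = 1.31e-08), and both fell. MECR, a reductase of mitochondrial fatty acid synthesis, fell as well (12.4 ± 2.17 CPM in high and 26.4 ± 0.538 CPM in low glucose, -1.04, adjusted p = 1.74e-07).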

How the data were processed

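RNA-Seq of Hs578T cells gave 8 libraries, 4 in high and 4 in low glucose, grouped by the treatment label. The authors gave their values as normalized signal in 1 table. For its tumor RNA-Seq the study describes CPM with TMM factors made with edgeR, which the submitters' processing notes also name beside the build hg38, and the deposited signal was therefore taken as CPM. Columns sum to 1017015 to 1036274 in high and 1205567 to 1229021 in low glucose. For these libraries the aligner, counting program and strand setting were not given in the sources used here. With the most frequent positive value as the worth of 1 count, 1 count was 0.0867 to 0.118 CPM. Counts were fractional, so no count model was used. The chi-square of these counts per gene was 1.60 to 5.72 between libraries of a group, so no 2 libraries were alike within sampling noise.

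After adding 1 CPM and taking log2, limma 3.58.1 under R 4.3.3 was fitted with a variance trend and no covariates, with Benjamini-Hochberg adjustment over 15570 genes. The fit was tried on simulated data that held no GC trend and no difference in scaling between libraries. That trial therefore cannot speak to either. Alternatives covered pseudocounts of 0.1 and 5 CPM, the filter, scaling, the variance prior, the replicate number, single libraries left out and GC content (GENCODE 44 canonical transcripts, for 98.7% of the genes kept). The genes, roles and further lists were chosen with earlier results of these data known. Genes given library by library were SREBF1, SREBF2, INSIG1, up to 4 called genes per role by smallest p and the genes of a role with fewer than 2 calls. SQLE, LSS, IDI1, FADS2 and FADS3 were added after their values were seen. Of each further list up to 3 called genes by smallest p were named, and some are not reported here.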

Additional observations from a re-analysis of the deposited data

Results flagged for a closer look

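In 5 of 86 groups of 4 libraries (43 genes in both conditions), 1 library stood apart from the other 3 by a gap that was large for the range of its group (Dixon's criterion at 95%). Chance gives this in about 1 of 20 groups. All 5 were low-glucose libraries. In low-glucose replicate 1, PMVK was at 25.7 CPM, against 21.0 to 21.8 CPM in the other 3, and FDFT1 was at 2011 CPM, against 1894 to 1905 CPM. In low-glucose replicate 2, ACSS2 was at 196 CPM, against 205 to 206 CPM in the other 3, FASN was at 817 CPM, against 698 to 711 CPM, and SCD5 was at 15.7 CPM, against 13.3 to 13.7 CPM.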

How the results depend on the processing

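Over the 43 genes and 19 alternatives, 738 comparisons with the reported value kept direction and call, 31 lost the call, 25 gained it and 23 turned. The median over the 43 genes turned to 0.17 with equal totals, 0.0786 with quantile normalization and 0.0475 with the GC correction, was -0.0314 with libraries scaled by the median of their ratios, and ran from -0.0730 to -0.0509 with single libraries left out. The 13 higher genes became 25 with equal totals, while those over all genes went from 5553 to 7326. Higher and lower genes numbered 13 to 14 and 17 to 20 with single libraries left out, and 10963 to 11064 genes were then called in the whole table. With equal totals HMGCS1 (0.15), SC5D (0.22), STARD4 (0.17), ELOVL1 (0.14), FADS2 (0.14), ACSL3 (0.00735) and ACSS2 (0.24) turned to higher. Scaling by the median of ratios turned SC5D (0.0165) and ACSS2 (0.0329), and quantile normalization turned HMGCS1 (0.32), SC5D (0.0786), STARD4 (0.0312) and ACSS2 (0.0843). The GC correction, chosen after seeing the data, turned SREBF1 (0.32), TM7SF2 (0.12), ELOVL1 (0.13), FADS2 (0.29) and ACSS2 (0.19) to higher and ELOVL7 (-0.0756) and ACSL4 (-0.10) to lower. With single libraries left out, ACSS2 ran from -0.0245 to 0.00275 and ELOVL7 from -0.00861 to 0.121. Equal totals and the median of ratios rescale whole libraries, and causes beyond that were not tested. Correlations of deviations were -0.03 to 0.11 between same-numbered replicates and -0.15 to 0.08 between unlike-numbered ones. These values do not settle whether replicate numbers pair the samples. With the replicate block 15 genes were higher and 21 lower, and 11494 were called in the whole table. At 0.0867 to 0.118 CPM for 1 count, TM7SF2 (2.07 to 5.51 CPM) and ACACB (2.0 to 4.48 CPM) rest on fewer counts than the other genes, and the part of depth in their lost calls was not tested.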

Other observations

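Of 10 measured genes of glycerolipid synthesis and lipid droplets 4 were higher, 3 lower and 3 did not pass (70.0% called, beside 72.9% of all genes tested). The alternatives were not checked for these genes or the next list. MGLL, the monoglyceride lipase, fell to 251 ± 18.8 CPM in high glucose, against 432 ± 13.2 CPM in low glucose (-0.78, limma adjusted p = 6.59e-10). GPAM, the mitochondrial acyltransferase that starts glycerolipid synthesis, rose to 52.4 ± 0.824 CPM, against 36.1 ± 3.47 CPM in low glucose (0.53, adjusted p = 2.41e-06), and DGAT1, which makes triglyceride, fell to 26.1 ± 3.11 CPM, against 41.4 ± 3.72 CPM (-0.65, adjusted p = 5.50e-06).

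Of 14 genes of fatty acid oxidation 2 were higher, 7 lower and 5 did not pass (64.3% called, beside the same 72.9%). CPT1A, the gate for entry of fatty acids into mitochondria, fell to 57.7 ± 3.58 CPM in high glucose, against 110.1 ± 3.72 CPM in low glucose (-0.92, adjusted p = 2.06e-10), and so did the dehydrogenase ACADVL (116 ± 6.06 CPM in high and 220.0 ± 10.2 CPM in low glucose, -0.92, adjusted p = 7.00e-11). CPT2, which acts on the inner side of the same shuttle, rose to 17.9 ± 0.269 CPM, against 7.27 ± 0.727 CPM in low glucose (1.19, adjusted p = 1.70e-08). The carrier SLC25A20 was the other gene that rose, named here after its value was seen (14.6 ± 0.816 CPM in high and 5.93 ± 1.48 CPM in low glucose, 1.20, adjusted p = 1.98e-06).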
